A study of Mus musculus with 35 samples.

Results

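The pool-and-split control asks how much single wells differ when every well receives the same RNA. RNA of 96 Reg4-dsRed-positive small-intestinal cells was pooled and divided over a 96-well plate, and each well was then processed by CEL-seq, the method used for the single cells. It is set here against single cells sorted for the same reporter, in 2 replicates. Wells were kept if they held at least 1500 counts of genes, which left 83 of 96 pool-and-split wells. Of the sorted cells, 75 of 96 wells passed in Reg4-positive replicate 1 and 81 of 192 in replicate 2. That is 239 of 384 wells in all. No kept well was identical to another, and every plate uses the same 96 well barcodes.

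The Reg4-positive cells were sorted from organoids that carry a Reg4-dsRed-knock-in allele on a C57BL/6 background. Organoids are epithelial structures that crypts form in Matrigel, here fed with EGF, R-spondin 1 and Noggin. All cells of this genotype go back to 1 mouse, and the replicates are different passages of 1 culture, so their spread measures passages and plates and not animals. The label of the pool-and-split entry gives the strain and the cell number but neither the passage nor the amount of RNA per well. Its table names wells by number alone and was matched to the entry by the initials in the table's name. The study's other control library has 5 wells without primer, and those well numbers held 5267 to 8837 counts in this table, so the layout of that library was not present. The even mix of secretory transcripts in every well was a further ground for taking the table as the control, so the evenness of secretory genes in the pool is a description and not independent of that choice.

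Intestinal secretory cells carry the biology that such a comparison turns on. Paneth cells at the crypt base store antimicrobial defensins and lysozyme in granules, goblet cells make the gel of mucus that covers the epithelium, and enteroendocrine cells release peptide hormones and serotonin. Reg4 encodes a secreted lectin-like protein that is known as a marker of enteroendocrine cells and of deep crypt secretory cells. Because each of these cell types devotes much of its messenger RNA to a few secreted products, a sorted population that mixes them holds large differences from cell to cell. A pool of the same cells holds none of these differences once its RNA has been mixed, and what remains is the spread of capture, amplification and counting.

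The kept pool-and-split wells held a median of 6420 counts (3950 to 15930), against 5169 (1549 to 22184) in Reg4-positive replicate 1 and 5721 (1514 to 189480) in replicate 2. The coefficient of variation of counts between wells was 26.0% in the pool, 67.3% in replicate 1 and 246% in replicate 2. In replicate 2, 3 wells lay above 100000 counts, and 9 of the kept wells were from plate I and 72 from plate II. After rounding, no pool-and-split well lay between 1438 and 3932 counts, whereas the last well left out and the first kept were at 1090 and 1543 counts in replicate 1 and at 1325 and 1508 in replicate 2. Depth was therefore equalised: each kept well was thinned at random to 1500 counts, and everything below refers to thinned wells unless stated. No doublet removal was done.

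For each gene the variance across wells was divided by the mean. Random draws from one common mixture give a value near 1 for this ratio, and differences between wells raise it. Of the genes in the tables, 288 had a thinned mean of at least 0.5 counts both in the pool and over all Reg4-positive wells. Mrfap1 and Eif3h lay just inside this limit at 0.5, and Sox9 and Dad1 lay just outside it at 0.494. The control is 1 library, so genes are called by size alone and no p-value is given.

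Gene by gene, thinned wells of the pool were close to random draws, and thinned Reg4-positive wells departed from them further. The median variance over mean was 1.04 in the pool, 1.36 in replicate 1 and 1.39 in replicate 2. Thinning itself brings this ratio towards 1, so the pool's value does not measure the noise of unthinned wells. At 3000 counts, over 702 genes, the medians were 1.09, 1.31 and 1.34. In the pool the central bulk of genes, from the 5% to the 95% point, lay between 0.796 and 1.41. A value of at least 2 was reached by 2 genes in the pool, 60 in replicate 1 and 53 in replicate 2. Most genes sat a little above the pool in single cells, with a median ratio to the pool of 1.34 in replicate 1 and 1.36 in replicate 2, and 215 genes were above the pool in both replicates against 31 below it in both.

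**Figure D1:**
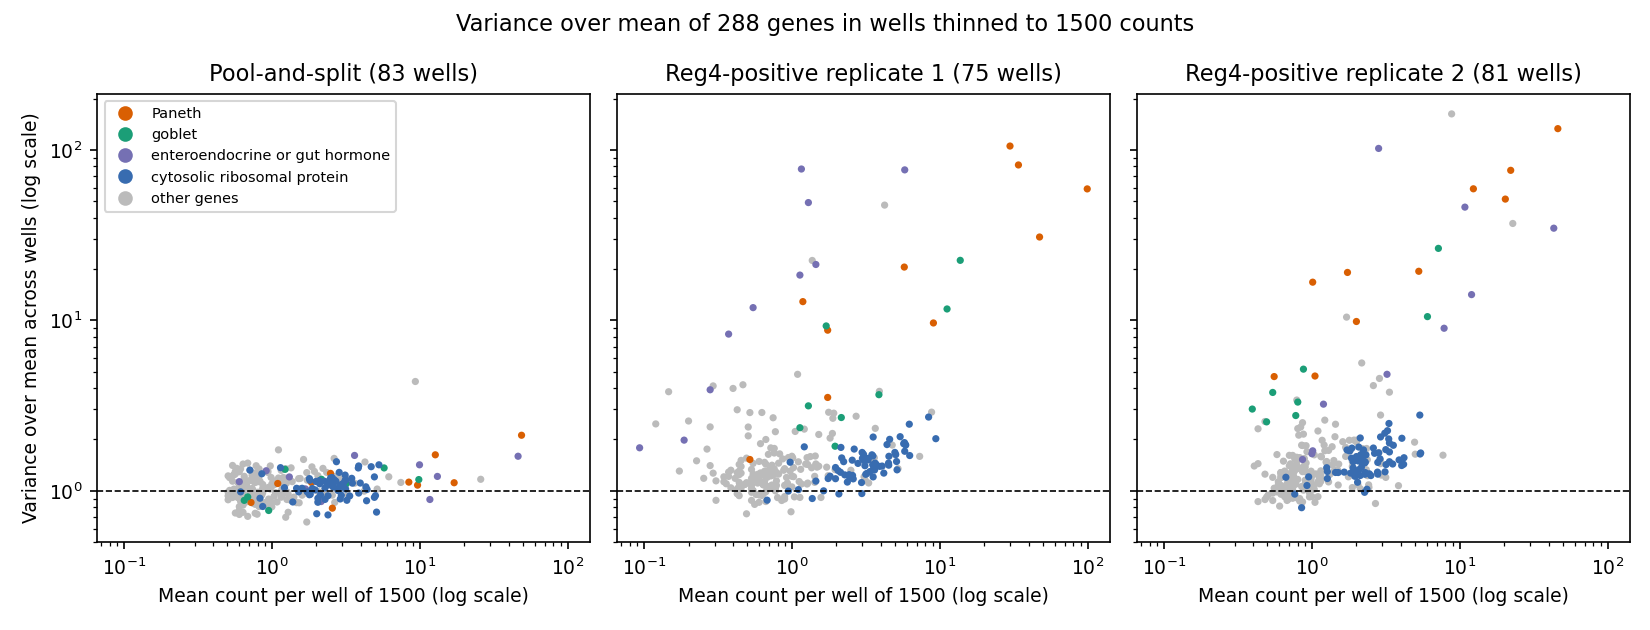
Variance over mean across wells (vertical, log scale) against the mean count per well of 1500 (horizontal, log scale) for 288 genes, 1 point per gene, in each library; the dashed line marks 1. Pool-and-split genes lie along the line with a highest value of 4.38, while Paneth, goblet and hormone genes of the Reg4-positive replicates reach values up to 105 and 133.

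A variance over mean at least 2 times that of the pool was found for 56 genes (19.4%) in replicate 1 and 52 (18.1%) in replicate 2, and 40 genes (13.9%) passed in both. No gene (0%) was at or below a ratio of 0.5 in both replicates. Of the 40 genes, 23 belonged to the Paneth, goblet, enteroendocrine and gut hormone lists and 10 to no list. The 40 genes were also more abundant than the rest, with a median pool mean of 2.53 counts per well against 1.15 for the other 248 genes, and the ratio of an abundant gene has more room to rise. Because thinning is random, the draw was repeated 20 times, an alternative chosen after seeing the data. On the mean of these draws 37 genes (12.8%) passed, 34 of them among the 40, and 25 of the 40 passed in every draw. Of the 6 genes that passed in the first draw and not on the mean, 5 were Calm3, Cd81, Eef1b2, Klk1 and Rpl41, and Fcgbp, Gapdh and Ptma passed on the mean only.

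Paneth genes were among the most variable. Of 28 genes on the Paneth list 10 were abundant enough to compare, and 9 of these were called in both replicates, in the first draw and on the mean of draws, against 13.9% of all genes compared. The median ratio of the 10 was 14.8 in replicate 1 and 17.3 in replicate 2, beside 1.34 and 1.36 over all 288 genes. Lyz1, which encodes the lysozyme of Paneth granules (chr10:117287797-117292868, GRCm38), had 3 to 18 counts per pool well with a median of 10. In single wells it ran from 0 through a median of 11 to 325 in replicate 1, and from 0 through 2 to 165 in replicate 2. The pool's range was narrow and lay inside both of the others, and the variance over mean was 1.08 in the pool against 105 and 59.2.

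The α-defensin Defa24 (chr8:21734494-21735471) was the most abundant gene of the pool, at 28 to 73 counts per well with a median of 50. It ran from 0 through 107 to 353 in replicate 1 and from 0 through 3 to 316 in replicate 2. Defensin genes are near-identical copies of each other and reads may have been divided among them, so these values are uncertain for any 1 copy. Its variance over mean was 2.12 in the pool, second to Rn45s there, and 59.1 and 133 in single wells. Gm15284, a gene of the same list known by its number, followed the same pattern, at 4 to 25 counts with a median of 12 in the pool and 0 to 194 and 0 to 145 in the replicates, with ratios of 50.2 and 46.7.

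Itln1, the lectin intelectin 1 (chr1:171518122-171535294), ranged over 9, 17 and 29 counts as lowest, median and highest pool well. The same values were 0, 46 and 149 in replicate 1 and 0, 2 and 117 in replicate 2, which gave ratios of 27.7 and 46.2. For Mptx2, a mucosal pentraxin, the ratios were 18.6 and 17.3 although its pool mean was only 1.10 counts. Defa17, Ang4 and Mmp7 were also called. Nupr1, a stress-induced nuclear protein, was the member not called, with ratios of 1.36 and 4.18.

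Goblet genes were called nearly as often, with smaller ratios. Of 26 list genes present, 8 could be compared and 7 were called in each of both ways of drawing. Over all genes compared the share was 13.9% in the first draw and 12.8% on the mean. The 7 were not the same: Klk1 passed in the first draw and Fcgbp, a mucus-binding protein, on the mean. Another single draw did not call Agr2, Guca2a, Klk1 and Muc2, 4 of the 7. The median ratio of the 8 was 3.72 in replicate 1 and 3.85 in replicate 2. Spink4, a protease inhibitor secreted with mucus (chr4:40920052-40931395), had 3, 9 and 20 counts as lowest, median and highest pool well. It had 0, 9 and 87 in replicate 1 and 0, 1 and 70 in replicate 2, and its ratios of 19.3 and 22.7 were the highest of the list. Tff3, the trefoil peptide of mucus, ran from 0 to 14 in the pool, from 0 to 43 in replicate 1 and from 0 to 33 in replicate 2, with ratios of 8.57 and 7.73. The gel-forming mucin Muc2 had ratios of 3.34 and 3.02.

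**Figure D2:**
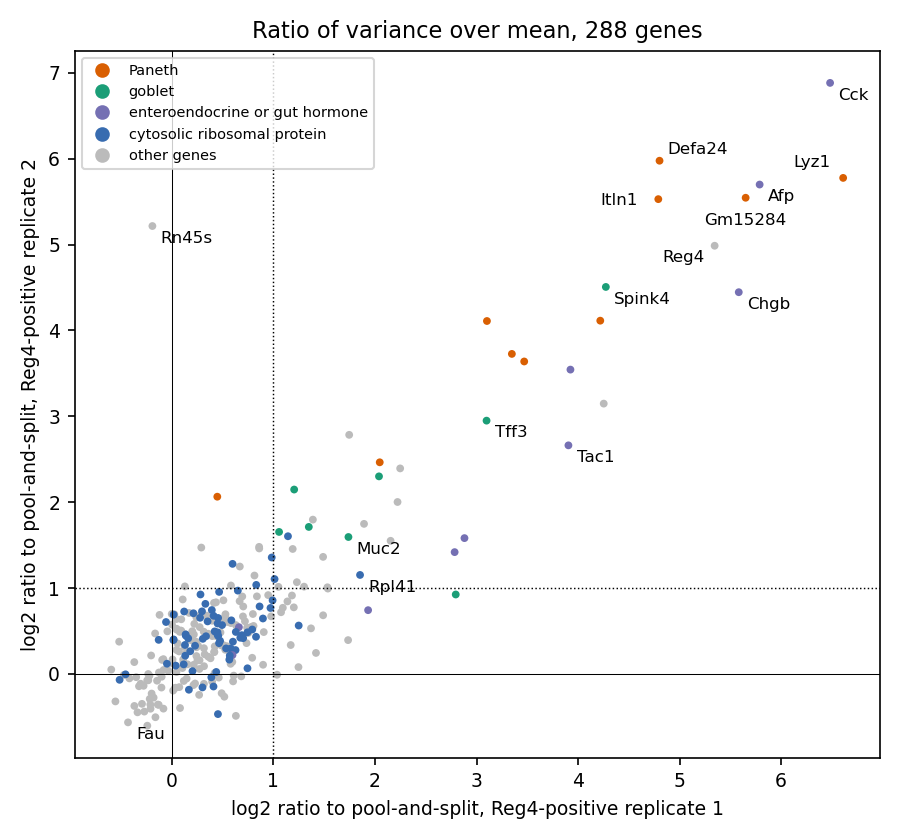
log2 ratio of variance over mean to the pool in Reg4-positive replicate 1 (horizontal) and replicate 2 (vertical), 1 point per gene, with dotted lines at 2-fold. Cck, Lyz1, Afp and Defa24 lie at the upper right, the ribosomal genes gather near the origin, and Rn45s stands alone at a ratio of 0.876 in replicate 1 and 37.2 in replicate 2.

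Hormone and enteroendocrine genes were also among the most variable. Cck, the precursor of the satiety hormone cholecystokinin (chr9:121489824-121495694), had 0 to 5 counts in the pool with a median of 2, and at least 1 count in 90.4% of pool wells. In single wells the median was 0 in both replicates, the highest well held 82 and 138 counts, and 4.00% and 13.6% of wells held any. Its mean level, in contrast, was 2.16 in the pool beside 1.16 and 2.83. The variance over mean was 0.865 in the pool (0.972 on the mean of 20 draws) and 77.3 and 102 in single wells. On the mean of draws its ratios to the pool were 78.6 and 96.0, beside 96.6 and 53.6 for Lyz1. Tac1, the tachykinin precursor that yields substance P, had 4, 10 and 21 counts as lowest, median and highest pool well. In single wells it had 0, 0 and 30 in replicate 1 and 0, 5 and 29 in replicate 2, with ratios of 15.0 and 6.33. These were the 2 of 13 hormone genes abundant enough to compare, and both were called, against 13.9% of all genes compared. Cck met the limit for comparison in single wells through the few wells that held it, so its call was largely set by passing that limit. The call of Cck is therefore a description and no result about hormone genes.

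Of 28 enteroendocrine list genes 8 were compared and 5 were called, against 13.9% of all genes compared: Chga, Chgb, Cpe, Tph1 and Afp. Chgb, the granin chromogranin B of hormone granules (chr2:132781278-132795079), had 25, 46 and 77 counts as lowest, median and highest pool well. It had 0, 0 and 123 in replicate 1 and 0, 49 and 129 in replicate 2. The replicates therefore differed in the typical well, with few wells of replicate 1 and most of replicate 2 carrying the transcript, and the pool resembled replicate 2 in mean. The coefficient of variation of Chgb was 18.6% in the pool, 363% in replicate 1 and 89.6% in replicate 2. Chga, its partner granin, had 5, 13 and 27 counts in the pool, 0, 0 and 27 in replicate 1 and 0, 8 and 45 in replicate 2, with ratios of 15.2 and 11.7. Afp, the fetal serum protein α-fetoprotein, was placed on this list with earlier results of these data known. Its variance over mean was 0.889 in the pool (1.06 on the mean of 20 draws) and reached 49.1 and 46.2 in single wells. In replicate 1 only 5.33% of wells held any Afp count, with a median of 0 and a highest well of 60, against 67.9% of wells in replicate 2. The replicate 1 value therefore rests on few wells. Pcsk1, Ddc and Fev were compared and not called.

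Reg4, the gene whose locus drives the sorting reporter (chr3:98222156-98236748), was itself even in the pool and uneven in the sorted cells. Pool wells held 15, 26 and 38 counts as lowest, median and highest. Single wells held 0, 1 and 85 in replicate 1 and 0, 5 and 107 in replicate 2, so both replicates extended below and above the range of the pool. The variance over mean was 1.17 in the pool and 47.5 and 37.0 in single wells. A row for the dsRed reporter was present in the table of replicate 1 alone, with 63 counts in 31 of its 75 kept wells (41.3%) and at most 4 in a well, so the reporter could not be checked in the pool. Lgr5, the receptor of crypt base stem cells, was under the limit for comparison at a mean of 0.0723 counts in the pool, 0.227 in replicate 1 and 0.0247 in replicate 2.

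Genes that every cell uses were mostly close to the pool. Of 82 cytosolic ribosomal protein genes 72 were compared and 3 were called, Rpl41 and Rps12 among them, against 13.9% of all genes. Of the 3, Rps12 also passed on the mean of draws. The list's median ratio was 1.37 in replicate 1 and 1.36 in replicate 2, about that of all genes. Rpl41 had 0 to 10 counts in the pool, 1 to 25 in replicate 1 and 1 to 16 in replicate 2. Rpsa, the most abundant of the list in the pool, had ratios of 1.73 and 1.43. Of 29 housekeeping and cytoskeletal genes 2 were called, the elongation factor Eef1b2 and the lactate dehydrogenase Ldha. On the mean of draws 3 passed, the glycolytic enzyme Gapdh (3.41 and 2.26), Ldha (2.38 and 2.12) and Ptma, whereas Eef1b2 passed in 2 of 20 draws. The elongation factor Eef1a1 had 2, 7 and 14 counts as lowest, median and highest pool well, 1, 8 and 21 in replicate 1 and 1, 7 and 18 in replicate 2, with ratios of 2.59 and 1.44.

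Nuclear genes of oxidative phosphorylation had median ratios of 1.06 in replicate 1 and 1.13 in replicate 2, and 0 of 17 were called, against 13.9% of all genes. None was called among 12 genes of the secretory machinery of the endoplasmic reticulum, 9 keratin and adhesion genes, 4 immediate early and heat shock genes or 3 nuclear long noncoding RNAs, and in lists this short a count of 0 is near that share. The chaperone Hspa8 had ratios of 0.970 and 1.41, Hspa5 had 1.52 and 0.942, and Krt8 had 1.65 and 1.53. The tuft gene Cd24a and the cell cycle gene H2afz, each the 1 compared member of its list, were not called, and the stromal gene Vim, the filament protein vimentin, was. No stem cell or immune gene reached the limit, and the table has no mitochondrially encoded rows.

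Apart from Reg4, 9 called genes belonged to no list: Gstt1, Adh1, Clps, Pappa2, Sepp1, Atf6, Cd81, Pnliprp2 and Calm3. They include enzymes of detoxification (Gstt1) and of alcohol oxidation (Adh1), the lipase cofactor colipase (Clps) and the selenium carrier selenoprotein P (Sepp1). Their ratios lay between 2.02 and 6.89, far below those of the leading Paneth and hormone genes. Gstt1 was at 4.75 and 5.25, and Clps at 3.35 and 6.89.

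At the other end, the 6 genes with the lowest ratios were Fau, Eif1, Pdia6, Rpn2, Atp5g1 and Ddx17. Fau, which encodes a ubiquitin-like fusion with a ribosomal protein, had a variance over mean of 1.55 in the pool, 1.15 in replicate 1 and 1.05 in replicate 2. Eif1, a translation initiation factor, had 1.35, 0.921 and 1.08. These 6 ratios lay between 0.659 and 0.846, so none fell to 0.5 of the pool. They are values of the first draw. On the mean of 20 draws Fau (1.18 and 1.11), Eif1 (1.03 and 1.42) and Atp5g1 (1.08 and 1.08) were above the pool in both replicates, so their direction turned with the draw.

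A few genes were uneven even in pooled RNA. Rn45s, the precursor of ribosomal RNA, had the highest variance over mean of the pool at 4.38, with 0, 8 and 28 counts as lowest, median and highest well. In replicate 1 it had 0, 3 and 17, and in replicate 2 it had 0, 4 and 344. The 344 counts were in 1 well, the next highest of replicate 2 holding 17, and without that well the variance over mean fell from 163 to 2.84, below the pool. Behind Rn45s and Defa24 came Plac8 at 1.74, Gm15284 at 1.63, Tph1, the enzyme of serotonin synthesis, at 1.61, and Chgb at 1.59. On the mean of 20 draws Defa24 stayed at 2.00, whereas Plac8 was at 1.13, Tph1 at 1.09 and Gm15284 at 1.20, and Malat1 was at 1.80.

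In a further 5 genes the replicates also disagreed, with one past 2-fold and the other close to the pool. The ferritin light chain Ftl1 had ratios of 1.22 and 2.77, and Txnip, an inhibitor of thioredoxin, had 1.09 and 2.03. Lgals3bp, Gng12 and Tmed2 were past 2-fold in replicate 1, with 2.67, 2.37 and 2.05, and had 1.18, 1.06 and 0.993 in replicate 2. Gng12 was at 1.55 and 1.26 on the mean of draws and so past 2-fold in neither.

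Summed over a list, the contrast was visible well by well. The 28 Paneth genes took 76, 108 and 138 of 1500 counts as lowest, median and highest pool well. They took 1, 232 and 808 in replicate 1 and 1, 13 and 741 in replicate 2. This evenness of the pool was itself a ground for the match of its table. It was not that of random draws for every list. The variance over mean of the pool's sums was 1.94 for Paneth and 1.03 for goblet genes. It was 1.63 for enteroendocrine and hormone genes and 1.77 for ribosomal protein genes. For the Paneth sums it was 188 and 381 in the replicates. Single wells ran from almost none to 53.9% of counts in replicate 1. Without thinning the highest shares were 8.75% in the pool, 53.4% in replicate 1 and 50.9% in replicate 2.

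Goblet genes took 13 to 44 counts in pool wells, 0 to 157 in replicate 1 and 1 to 128 in replicate 2. Enteroendocrine and hormone genes together took 69, 101 and 134 counts as lowest, median and highest pool well, 0, 0 and 279 in replicate 1, and 0, 100 and 264 in replicate 2. The replicates differed here: 45 of 75 wells of replicate 1 and 5 of 81 wells of replicate 2 held no count of these 41 genes. Ribosomal protein genes, which no single cell type owns, took 150 to 239 counts in the pool, 70 to 431 in replicate 1 and 78 to 472 in replicate 2. Their coefficient of variation was 9.57% in the pool, 34.1% in replicate 1 and 41.2% in replicate 2. Genes of other cells were scarce: the 11 immune genes never exceeded 2 counts in a pool well and 71 of 83 pool wells held none, and the 10 stromal genes reached at most 4 counts in the pool and 3 and 5 in the replicates.

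**Figure D3:**
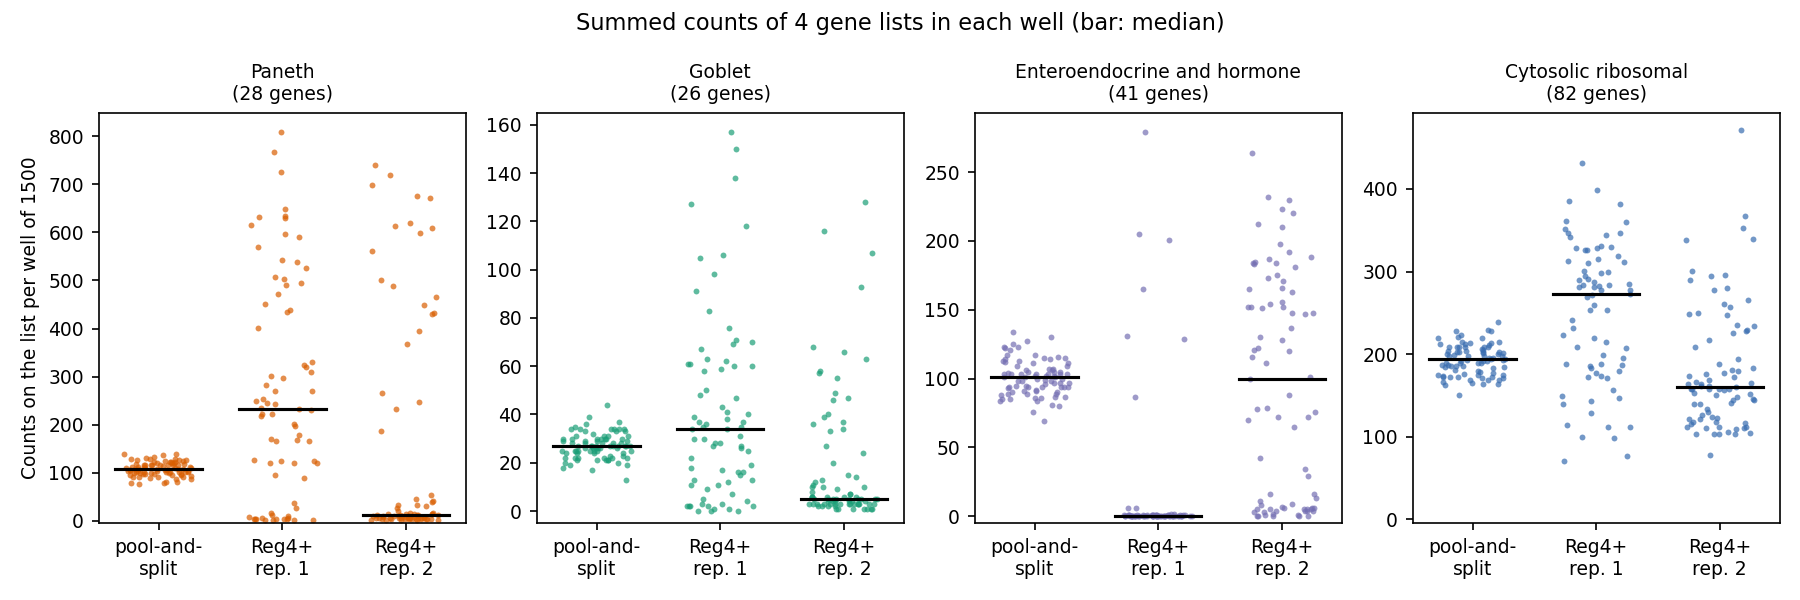
Counts out of 1500 that fall on 4 gene lists (vertical, linear), 1 point per kept well, with a bar at the median of each library. Pool-and-split wells form tight bands, for the Paneth list from 76 to 138 counts, whereas Reg4-positive wells spread from near 0 to 808 counts.

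The pool's mean levels followed replicate 2 more closely than replicate 1. Its mean was within 2-fold of replicate 2 for 277 of 288 genes (96.2%) and of replicate 1 for 229 (79.5%), and the replicates were within 2-fold of each other for 221 (76.7%). Across genes, which are not independent replicates, the log2 means of the pool correlated with those of replicate 2 at r = 0.922 and of replicate 1 at r = 0.775. More than 2-fold above both replicates were 3 genes, Malat1 and Nupr1 among them. Malat1, a long noncoding RNA retained in the nucleus, had a mean of 4.27 counts in the pool against 1.05 and 1.04. Nupr1 had 1.86 against 0.520 and 0.556. More than 2-fold below both were Clps (0.831 against 2.72 and 2.17) and the ribosomal gene Rpl37 (0.614 against 1.37 and 1.27). Handling of pooled RNA and the makeup of the cells pooled cannot be told apart in these level differences.

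The number of genes detected was steady in the pool too. Thinned pool wells held 879 to 1036 genes with a median of 939. Wells of replicate 1 held 498 to 1087 with a median of 824, and wells of replicate 2 held 557 to 1126 with a median of 946. Without thinning the medians were 2624, 1940 and 2356. A gene's share of wells at 0 exceeded the share that random draws at its mean would give by more than 10 percentage points for 0 of 288 genes in the pool, 51 in replicate 1 and 63 in replicate 2.

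Correlations between genes separated the libraries further. For each of 41328 gene pairs Pearson's r was computed across the wells of a library, where all genes share the fixed total of 1500. These are descriptions with no p. The median absolute r was 0.0749 in the pool, 0.109 in replicate 1 and 0.113 in replicate 2. Independent values over so many wells have an r with a standard deviation of 0.110, 0.116 and 0.112. The median absolute r of independent values is smaller than their standard deviation, so these figures are not like for like. An absolute r of at least 0.3 was found for 262 pairs (0.634%) in the pool, 3049 (7.38%) in replicate 1 and 3472 (8.4%) in replicate 2. At 0.5 the numbers were 2, 274 and 273. In the pool 183 pairs (0.443%) were at or above 0.3 and 79 (0.191%) at or below -0.3. The positive pairs were 2603 (6.3%) in replicate 1 and 2584 (6.25%) in replicate 2, and the negative ones 446 (1.08%) and 888 (2.15%).

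Of the 41328 pairs, 883 were at or above 0.3 in both Reg4-positive replicates and 137 at or below -0.3 in both. Of these shared pairs 3 passed 0.3 with the same sign in the pool, where the median absolute r of all of them was 0.0754, next to 0.0749 over all pairs. Both genes were ribosomal in 430 of the shared pairs, out of 2556 ribosomal pairs. Both were among the 40 called genes in 143. These 2 counts are not shares, because the 72 ribosomal genes compared form many more pairs than the 40 called genes. Ribosomal genes thus formed many of the shared pairs although few of them were called by their own variance.

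Within the secretory lists the pool showed next to no structure. The median r of the 45 Paneth pairs was 0.00 in the pool, 0.23 in replicate 1 and 0.53 in replicate 2. For the 28 goblet pairs it was -0.02, 0.39 and 0.54, and for the 45 enteroendocrine and hormone pairs 0.02, 0.46 and 0.33. Few wells of replicate 1 held more than a few counts of the enteroendocrine and hormone genes, so their r there rests on those wells. The 2556 ribosomal pairs had 0.01, 0.25 and 0.27. Between lists the medians of 100 Paneth and enteroendocrine pairs were 0.02 in the pool and negative in single wells, at -0.13 and -0.28. Positive r was not confined to lists. The 80 Paneth and goblet pairs had medians of -0.02 in the pool, 0.09 in replicate 1 and 0.50 in replicate 2. In replicate 2, 61 of these 80 pairs were at or above 0.3.

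**Figure D4:**
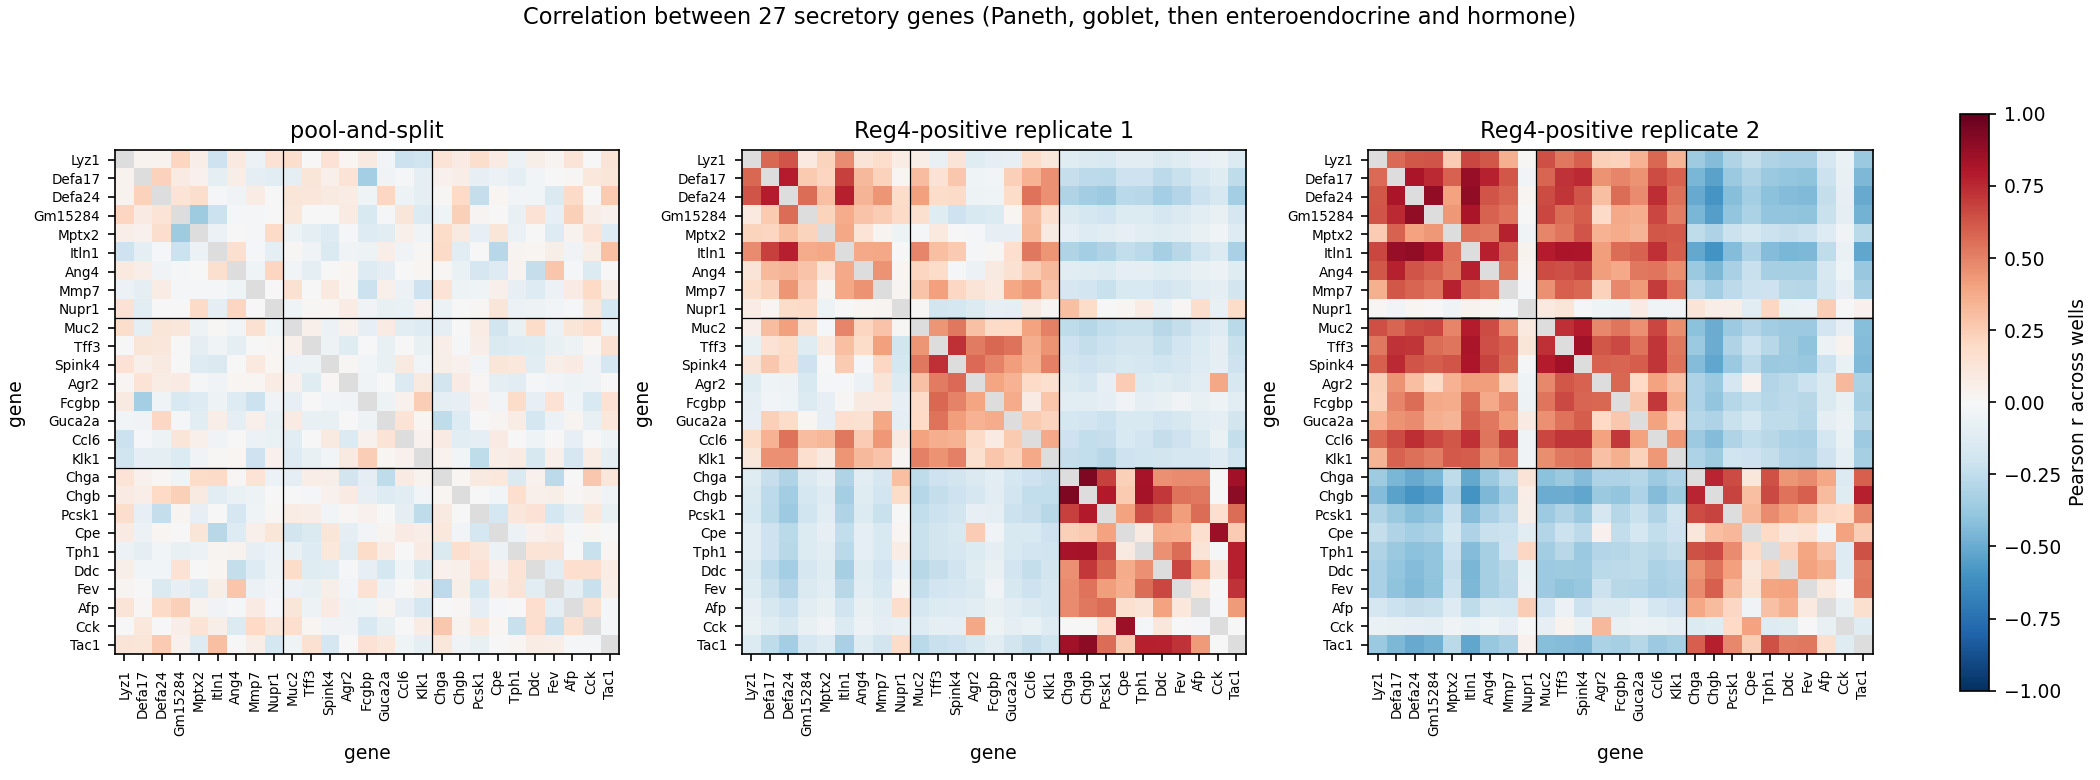
Pearson r across wells between 27 of the 28 compared Paneth, goblet, enteroendocrine and hormone genes in the pool and in each Reg4-positive replicate, coloured from -1 (blue) to 1 (red), with black lines between the lists and the diagonal in grey. Blocks of positive r appear within lists in both replicates, and also between Paneth and goblet genes in replicate 2, and no block appears in the pool.

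The strongest pairs had clear identities. Chga and Chgb had r = 0.94 in replicate 1, 0.76 in replicate 2 and 0.02 in the pool, and Chgb with Tac1 had 0.90, 0.78 and -0.03. The goblet pair of Spink4 and Tff3 had 0.73, 0.84 and -0.05. Among Paneth genes Defa24 and Itln1 had 0.78, 0.89 and -0.02, Defa17 and Itln1 had 0.69, 0.87 and -0.09, and the defensins Defa17 and Defa24, which may share reads, had 0.78, 0.81 and 0.23. Reg4 paired with the enteroendocrine gene Chga at 0.89 and 0.68 against -0.13 in the pool, and Chgb paired with Gstt1 at 0.87 and 0.70 against 0.07. In replicate 1 the summed counts of enteroendocrine and hormone genes were 0 at the median well and 1 at the 75% point. The replicate 1 values of pairs with Chga or Chgb therefore set few wells against many near 0.

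Among the most negative pairs were a Paneth and an enteroendocrine gene, each set against a general one. Itln1 had r = -0.51 and -0.44 with the peroxiredoxin Prdx1, with -0.17 in the pool. Chgb with Rps12 had -0.43 and -0.49, with -0.04 in the pool. A well whose fixed total is filled by one abundant group has fewer counts for every other gene, and the share of this in the negative values was not tested.

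The largest correlations of the pool were of another kind. Malat1 and Rn45s had r = 0.54 there, with 0.22 and 0.46 in the replicates, and Defa24 and Rn45s had -0.51, with 0.11 and -0.07. The next were Mmp7 with Rnf128 (0.49), Cycs with Lamp1 (0.46), Rhoa with Tagln2 (0.43) and Hmgb1 with Tac1 (-0.42). None of these 4 had an absolute r of 0.3 in either replicate. On the mean of 20 draws, added after seeing the data, Malat1 and Rn45s kept 0.48 and Defa24 and Rn45s -0.34, whereas the other 4 were at 0.02, 0.06, 0.07 and -0.11.

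Sums over lists were correlated in the same way. Paneth and goblet sums had r = 0.02 in the pool, 0.15 in replicate 1 and 0.76 in replicate 2. The typical well of replicate 2 was low in both, with medians of 13 Paneth and 5 goblet counts and highest wells of 741 and 128. Whether the 2 sums move together among wells rich in Paneth counts was not tested. Paneth sums with enteroendocrine and hormone sums had -0.35 and -0.64 in the replicates. In the pool, in this 1 draw, this r was 0.32, the highest of the 6 list pairs there, and Paneth sums with ribosomal sums had 0.26. Enteroendocrine and hormone sums with ribosomal sums had 0.03 in the pool and -0.54 and -0.59 in single wells. In replicate 1 the values with enteroendocrine and hormone sums rest on the few wells that held such counts.

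Synthetic spike-in RNAs, which per the labels were added to each well, served as a control inside the single-cell plates. Wells with at least 100 spike-in counts were thinned to 100, which kept 83, 66 and 79 wells, and 14 spike-ins were compared. Their median variance over mean was 0.989 in the pool, 1.01 in replicate 1 and 1.01 in replicate 2, so all 3 medians lay near 1. Thinning to 100 counts itself brings this ratio towards 1, so these values do not measure the noise of unthinned wells. The highest single value was 1.45 in the pool, 1.47 in replicate 1 and 1.19 in replicate 2. The share of spike-ins among all counts of a well had a coefficient of variation of 9.10% in the pool against 41.1% and 50.9%, so pool wells also varied less in their amount of RNA relative to spike-ins.

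The pool-and-split plate also had wells that failed, although each had received the same RNA. Of 96 wells 13 were under 1500 counts, and 11 of them lay among the 17 wells numbered 65 to 81. Each well is marked by a barcode of 8 bases in its primer. The barcodes of wells 57 to 72 are printed as deposited, 5′ to 3′, because this run combines 4 starts of 5 bases with 4 ends of 3 bases (in capitals) and holds low wells beside normal wells that share their start or their end.
well 57: agcgtCGA
well 58: tagacCGA
well 59: ctatgCGA
well 60: gctcaCGA
well 61: agcgtATC
well 62: tagacATC
well 63: ctatgATC
well 64: gctcaATC
well 65: agcgtTCG
well 66: tagacTCG
well 67: ctatgTCG
well 68: gctcaTCG
well 69: agcgtGAT
well 70: tagacGAT
well 71: ctatgGAT
well 72: gctcaGAT
Wells 57 to 64 held 5629 to 9114 counts. Wells 65, 66 and 67 held 852, 695 and 85, and well 68, with the same end, held 7499. Wells 69, 70 and 71 held 991, 1293 and 1198, and well 72, with the same end, held 5178. The first 3 starts were normal with the ends CGA and ATC and low with TCG and GAT, and the fourth start was normal with all 4 ends. Over the whole plate the 13 low wells used 7 starts and 4 ends, and each of these 7 starts and 4 ends also occurred on a kept well.

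The same well numbers were low on other plates. Spike-in counts of the 11 low wells between 65 and 81 had a median of 55 in the pool plate, against 301 in the 83 kept wells. On plate I of replicate 2 the same 11 wells had 61 to 141 spike-in counts, against a median of 458 in the wells kept in the pool, and on plate II 36 to 179 against 340. All 11 were under that median on both plates, and of the 83 kept wells 2 on plate I and 7 on plate II were as low. On the plate of replicate 1 they had 9 to 440 with a median of 252 against 183, and 3 of the 11 were under the median. Wells 51 and 87, the other low wells of the pool, had 351 and 397 spike-in counts on plate I and 299 and 242 on plate II and so did not share the pattern. The low yield of the pool thus recurred on both plates of replicate 2 and not on the plate of replicate 1, and whether the primer, its position or another step moved with it was not tested.

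**Figure D5:**
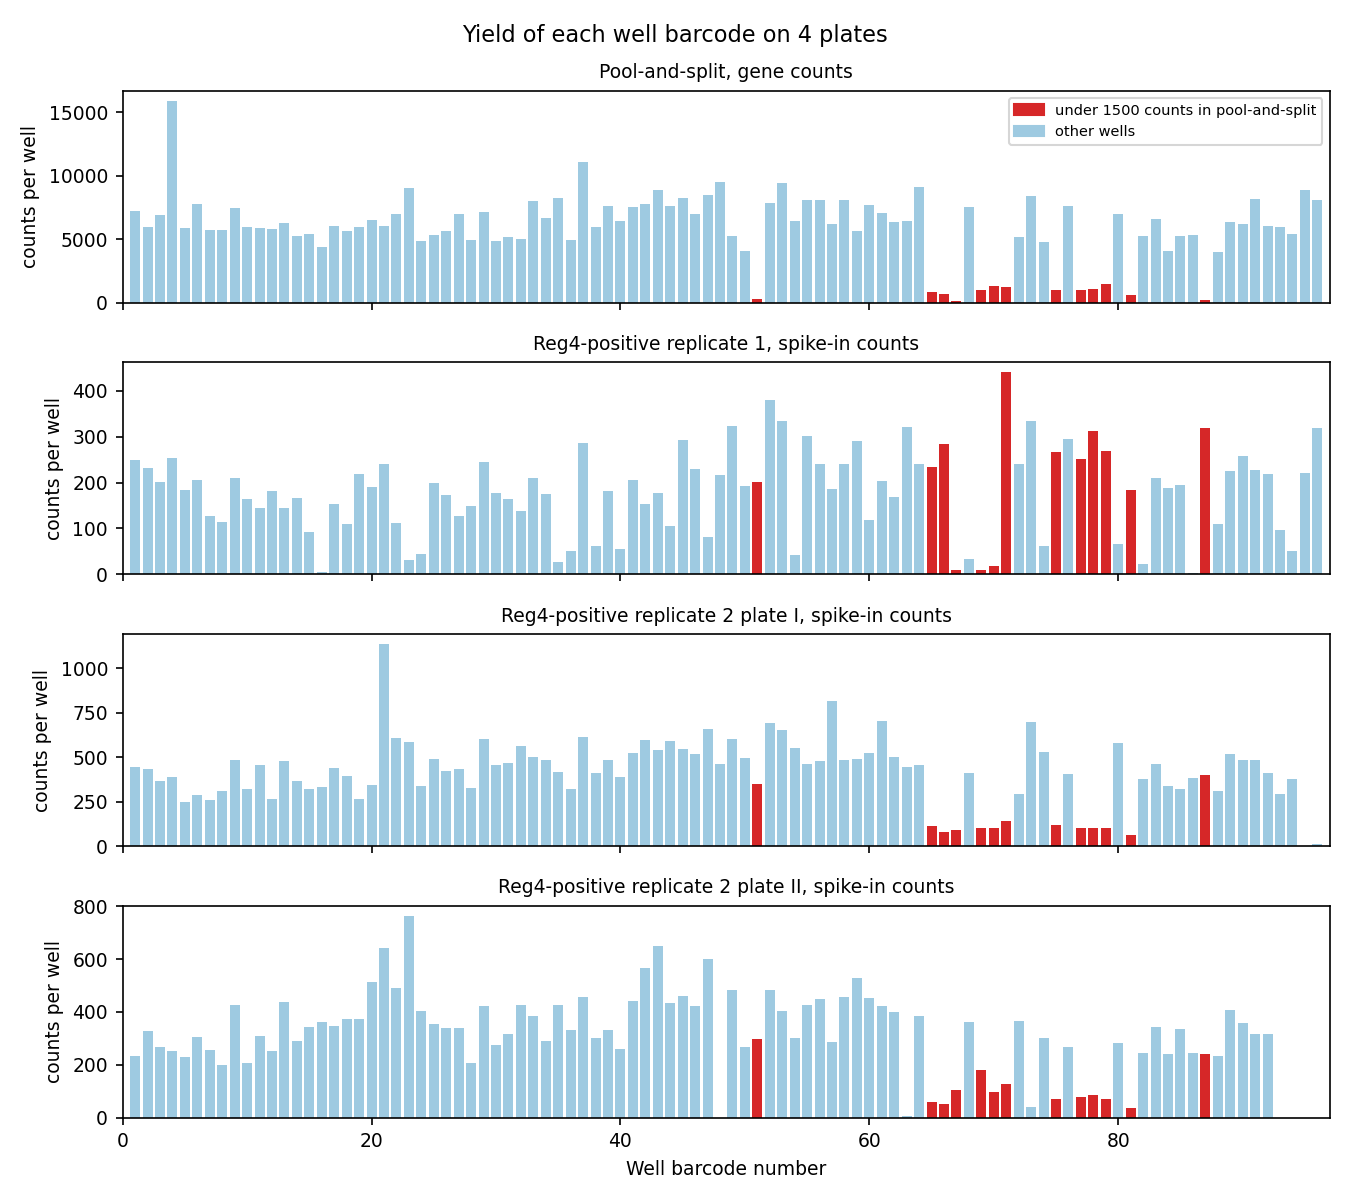
Gene counts of each pool-and-split well (top) and spike-in counts of the wells with the same number on the plates of Reg4-positive replicate 1 and replicate 2 (below), by well number, on linear axes from 0. Red bars mark the 13 wells under 1500 counts in the pool; 11 of them, between 65 and 81, are low again on plates I and II of replicate 2 and not as a group on the plate of replicate 1.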

How the data were processed

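Values of 3 tables, with 23538 gene rows and 92 spike-in rows each, are estimated counts of transcripts deposited by the authors. The submitters' processing notes name the aligner BWA (0.6.2-r126) and the builds mm10 and GRCm38. The authors' other steps and their annotation are not given in the sources used. From the values, the authors corrected numbers of distinct 4-base molecular barcodes for repeats. For a set of 256 barcodes, 657190 of 657195 nonzero values became whole when the correction was inverted (tolerance 1e-06), and the other 5 stood at its upper limit of 1597.01. A list of well barcode sequences, deposited by the authors as other information, was read as text.

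Estimated counts were rounded (largest change 0.495), spike-ins and the dsRed row were left out of totals, and wells with at least 1500 counts were thinned to 1500 without replacement. Variance over mean and Pearson correlations were computed per library (Python 3.11.15, numpy 2.4.6, pandas 2.3.3, scipy 1.17.1, matplotlib 3.10.9) and checked on simulated data. The wells in a library are not replicates, and the pool is 1 library, so no test was made. Precision is limited by 75 to 83 wells of 1500 counts.

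The comparison, the 18 gene lists and the rule for named genes were chosen with earlier results of these data known. Named genes were the 12 largest and 6 lowest ratios, the 6 most variable in the pool, up to 3 most abundant members per list, Reg4, Lgr5 and dsRed, up to 6 genes at odds between replicates, and the strongest pairs. Some genes that the rule takes are not reported here. The 9 called genes in no list, and members named as called or not called, were named after their values were seen, as were the barcodes shown. Coordinates are from GENCODE release M21 on GRCm38. Alternatives covered depth, draw, scaling, filter, barcode correction, wells, plates, replicates and the kind of measure.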

Additional observations from a re-analysis of the deposited data

How the results depend on the processing

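The mean over replicates of the median ratio of variance over mean to the pool was 1.35, that of the median absolute correlation 1.49, the mean share of pairs past 0.3 in single wells 7.89%, and 40 genes were called. Thinning to 3000 counts gave 1.24, 1.42 and 90 genes of 702, of which 38 were among the 40. Scaling without thinning gave 2.38, 2.09, 23.1% and 146 of 281 genes, a far larger share than in the main result. A minimum mean of 0.1 gave 1.05, 1.09, 2.11% and 60 of 2071 genes, and a minimum of 1 gave 1.46, 2.13 and 17.6%. Distinct barcode numbers gave 1.32, 1.44 and 7.11%. Without the plate of 9 kept wells the ratio was 1.32, and on the mean of 20 draws, added after seeing the data, 1.29. Excess variance over the squared mean called 179 of 288 genes. With this measure any positive excess in both replicates passed where the pool had none. Spike-ins had a ratio to the pool of 1.02, and of 0.872 and 0.918 when thinned to 50 and 200. Leaving out 1 Reg4-positive replicate gave 1.347 to 1.353, 1.47 to 1.49, 7.64% to 7.94%, and 46 of 244 to 57 of 310 genes. These 2 gene counts ask for 2-fold in the remaining replicate alone, a looser rule than that of the 40 genes. Over the 288 genes of the main result 56 passed in replicate 1 and 52 in replicate 2. Another single draw called 33 of 284 genes, 30 of them among the 40. Spearman correlation and leaving out wells above 100000 counts moved none of these values by more than the difference between replicates. Of 188 values of 19 named called genes under the alternatives, 188 were above 0 on the log2 scale and 183 at least 1. These genes were picked because they were called in the same wells. A changed minimum mean repeats a gene's main value, and leaving out a replicate gives 1 term of its mean. The counts are therefore a description and no independent support. No paired analysis was possible because the pool-and-split control is 1 library and no test was made.

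Genes under a mean of 0.5 counts per well of 1500 were not compared in the report, and the ratio of a scarce gene is small whatever its spread. The match of the pool-and-split table rests on its name, on the layout of its wells and on its even mix of secretory transcripts.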
